A study of Homo sapiens with 6 samples.

Results

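The genes described here are the named genes of human chromosome 13 with measurable RNA in cultured lymphoma B cells, taken in their order along the chromosome. A gene was a member when a row of its name on chromosome 13 was present in all 6 libraries and its mean over them was at least 0.5 FPKM (fragments scaled to transcript length and to all mapped fragments). The rule left 6 genes of the chromosome out by name, 4 of which would have passed it. It gave 236 members among 11362 genes that meet the same level on any chromosome. The level over all libraries chose the members, so it is a description and not a result. Just inside the limit stood PROZ at 0.510, RP11-327P2.5 at 0.516 and RPLP1P13 at 0.540 FPKM, and just outside it RPL21P110 at 0.491, PAN3-AS1 at 0.485 and RP11-101P17.14 at 0.479 FPKM. Of the members, 224 could be tested and 12 could not, because their row joined several genes or had failed. The tested members were 148 protein-coding genes, 49 pseudogenes and 27 others, mostly non-coding RNAs.

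RNA was measured in 2 immortalised lymphoma B cell lines with 3 libraries each. LY19WT is labelled as wild type for EZH2, and LY19Y646F as expressing EZH2-Y646F constitutively from a CMV promoter. All cells were untreated, at passages 10 to 15, in RPMI with 10% serum. The labels call the libraries of a line biological replicates without naming separate cultures. The p-values therefore speak for the spread among these libraries, which may be technical. With 1 line for each form of EZH2, an effect of EZH2-Y646F cannot be told apart from any other difference between the lines.

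EZH2 is the methyltransferase of Polycomb repressive complex 2, and its mark on lysine 27 of histone H3 goes with silent genes. The Y646F change lies in its catalytic domain and is known from lymphomas of germinal centre B cells. Chromosome 13 is an acrocentric, gene-poor chromosome whose long arm carries the DLEU genes, named for their deletion in lymphocytic leukaemia, and the host gene of the miR-17-92 cluster. Neighbouring genes can change together when they share a promoter region, a chromatin domain or the dosage of a chromosome segment, and the tables hold RNA levels only. Which of these holds here was not tested.

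Promoters of some members named below are shown first, each as 250 bases before and 50 after the start of the gene in RefSeq. They are written 5′ to 3′ on the gene's own strand, with each CG dinucleotide in capitals. TEX30 is shown because it had the largest fall of the chromosome, GPR18 because it had the largest rise that passed the test. DNAJC15 is shown as a rise whose promoter holds more CG dinucleotides than that of GPR18. MZT1 and BORA are shown as neighbours that start 294 bases apart on opposite strands, so that their windows overlap, and that were called differently.
TEX30 promoter, GRCh38.p14 chr13:102773737-102774036, minus strand: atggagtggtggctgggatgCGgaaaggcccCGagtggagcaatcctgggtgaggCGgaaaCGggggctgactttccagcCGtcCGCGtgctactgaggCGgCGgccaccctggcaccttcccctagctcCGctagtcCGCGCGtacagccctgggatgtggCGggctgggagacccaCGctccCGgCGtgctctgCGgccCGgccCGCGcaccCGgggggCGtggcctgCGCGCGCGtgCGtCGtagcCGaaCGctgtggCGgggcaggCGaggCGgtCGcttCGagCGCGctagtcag
GPR18 promoter, GRCh38.p14 chr13:99258330-99258629, minus strand: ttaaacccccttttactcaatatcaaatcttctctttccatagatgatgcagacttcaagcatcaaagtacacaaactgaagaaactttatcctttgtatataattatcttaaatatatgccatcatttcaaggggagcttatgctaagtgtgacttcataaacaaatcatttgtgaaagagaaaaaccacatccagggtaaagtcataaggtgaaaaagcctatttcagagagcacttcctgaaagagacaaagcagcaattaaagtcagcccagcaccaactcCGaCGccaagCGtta
DNAJC15 promoter, GRCh38.p14 chr13:43023336-43023635, plus strand: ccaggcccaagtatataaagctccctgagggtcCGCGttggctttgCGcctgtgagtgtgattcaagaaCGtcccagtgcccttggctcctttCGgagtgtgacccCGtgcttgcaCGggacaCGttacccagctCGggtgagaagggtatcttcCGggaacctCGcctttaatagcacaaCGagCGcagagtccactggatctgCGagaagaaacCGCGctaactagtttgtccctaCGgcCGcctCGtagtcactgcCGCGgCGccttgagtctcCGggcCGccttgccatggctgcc
MZT1 promoter, GRCh38.p14 chr13:72727580-72727879, minus strand: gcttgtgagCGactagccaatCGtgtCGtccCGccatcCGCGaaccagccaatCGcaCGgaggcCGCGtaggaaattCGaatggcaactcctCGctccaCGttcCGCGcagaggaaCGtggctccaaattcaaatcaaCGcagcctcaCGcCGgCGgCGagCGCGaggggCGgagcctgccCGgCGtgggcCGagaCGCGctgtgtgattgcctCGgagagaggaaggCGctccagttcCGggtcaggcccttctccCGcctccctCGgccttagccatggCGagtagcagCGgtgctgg
BORA promoter, GRCh38.p14 chr13:72727673-72727972, plus strand: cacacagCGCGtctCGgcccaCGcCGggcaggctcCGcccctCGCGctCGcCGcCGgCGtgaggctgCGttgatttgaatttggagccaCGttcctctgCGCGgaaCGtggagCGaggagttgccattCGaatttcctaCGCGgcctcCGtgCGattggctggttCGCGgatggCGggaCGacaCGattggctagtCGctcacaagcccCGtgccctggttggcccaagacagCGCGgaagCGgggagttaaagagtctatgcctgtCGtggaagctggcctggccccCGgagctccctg
The promoter of TEX30 holds 38 CG dinucleotides, that of DNAJC15 24, that of MZT1 36 and that of BORA 35, while that of GPR18 holds 3. The results below refer back to these windows.

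The libraries were checked before the members were compared. EZH2 RNA was 60.6 to 76.5 FPKM in the LY19WT libraries and 70.2 to 93.5 FPKM in the LY19Y646F libraries, and the tables do not separate mutant from wild-type transcripts. The summed levels of 6 B cell markers were 354 to 545 FPKM in LY19WT, against 582 to 935 FPKM in LY19Y646F, so both lines carried B cell RNA. Yet MS4A1, which encodes CD20, was at 0.0688 to 0.140 FPKM in LY19WT, against 83.1 to 118 FPKM in LY19Y646F, and rows naming the kappa light chain gene IGKC were at 39.4 to 54.3 FPKM against 4283 to 4908 FPKM. The T cell markers CD3D, CD3E, CD3G, CD2 and CD8A were between 0 and 1.06 FPKM in all libraries, and TRAC was between 12.5 and 15.6 FPKM. Summed myeloid markers were 15.4 to 21.7 FPKM in LY19WT, carried by LYZ and CD33, and 0.655 to 0.972 FPKM in LY19Y646F. The part of these differences in the results below was not tested. Fewer cells of a kind and less RNA per cell cannot be told apart in such libraries. Summed FPKM was 806102 to 1020940 per library, and the 10 highest rows took 27.5% of it in LY19WT replicate 3 and 5.71% to 9.38% elsewhere. Read totals per library are not given in the sources used here, so depth is unknown.

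Chromosome 13 stood lower in LY19Y646F. Of the 224 tested members, 76 fell and 25 rose from LY19WT to LY19Y646F at an adjusted p under 0.05 (limma on log2(FPKM + 1), Benjamini-Hochberg adjustment over 10703 genes of all chromosomes). That is 45.1% of members called, beside a background of 33.2% over all tested genes. Falls made up 33.9% of members against a background of 16.5%, and rises 11.2% against 16.8%. The side of 0 shows it without a threshold: 158 members, or 70.5%, had a lower mean in LY19Y646F, against 51.6% of all tested genes. Falls of at least 2-fold that passed the test numbered 43, with a background of 10.9%, and such rises 15, with a background of 9.57%. In 137 members the libraries of the lines did not overlap (background 48.6%), and in 105 of these every LY19Y646F library was the lower (background 24.1%).

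The median log2 change of the tested members was -0.46, a level of 0.727 times that in LY19WT, beside -0.03 for all tested genes. It was the lowest of 23 chromosomes, the 22 autosomes and X. Chromosome 4 came next at -0.26, then chromosome 15 at -0.23, and chromosome 20 had the highest median at 0.32. The interquartile range of the members, -0.97 to 0.09, still overlapped that of every other chromosome.

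**Figure D1:**
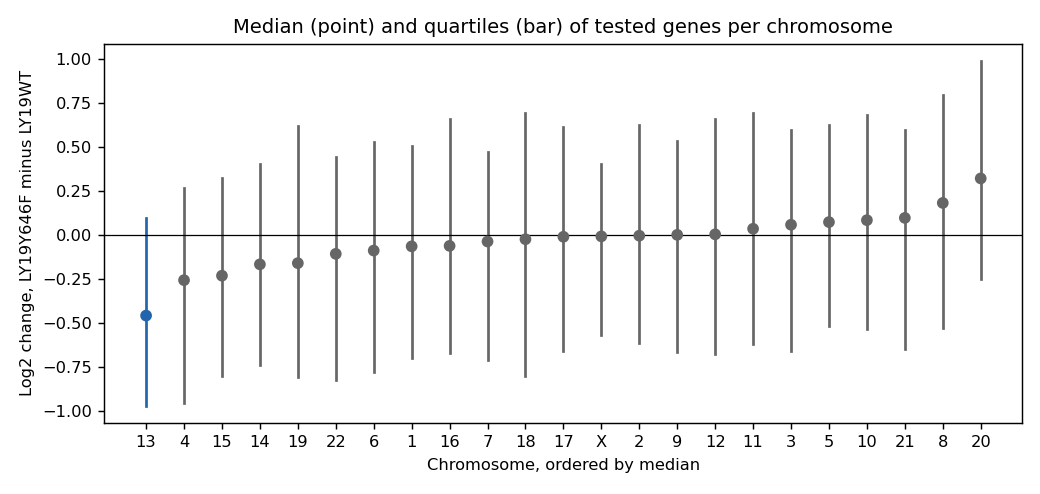
Median log2 change of tested genes per chromosome (points) with the quartiles (bars), LY19Y646F minus LY19WT on the log2(FPKM + 1) scale, ordered by median. Chromosome 13, in blue at the left, has the lowest median at -0.46, and its bar overlaps those of all other chromosomes.

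The shift was present in each library. Relative to each gene's mean over the 6 libraries, the median member was at 0.15, 0.21 and 0.26 log2 units in the LY19WT libraries and at -0.37, -0.21 and -0.22 in the LY19Y646F libraries. The lines did not overlap, and LY19Y646F replicate 1 was the lowest library. Their means were 0.21 ± 0.06 and -0.27 ± 0.09 (SD, n = 3 each), while the same medians over all tested genes were -0.02 ± 0.02 and -0.03 ± 0.02. The FPKM of all named chromosome 13 rows summed to 17489 to 18386 in LY19WT and 13142 to 14165 in LY19Y646F, with no overlap. That sum also takes in rows that are no members, and the most abundant genes weigh most in it. TPT1 alone averaged 3549 FPKM in LY19WT and 2747 FPKM in LY19Y646F.

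Most of the falls were in protein-coding genes. Among the 148 tested coding members 64 fell and 14 rose, where the backgrounds of coding genes were 18.9% and 19.7%, and their median log2 change was -0.54. Among the 49 pseudogenes 7 fell and 6 rose (backgrounds 8.97% and 9.02%), with a median of -0.27. The 27 other members had 5 falls, 5 rises and a median of 0.00. Members whose rows did not overlap another tested member numbered 172, of which 63 fell and 18 rose. Where rows do overlap, as for 52 members, reads of neighbours on opposite strands may have been shared, since the sources used here do not say how strand entered the counting.

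A level under 0.5 FPKM in a single line applies to 39 members, which entered through the line where they are higher. Of these 16 fell and 7 rose, and without them 60 members fell, 18 rose and the median log2 change was -0.40. In 26 members a line was listed at 0 in only part of its libraries while reaching 2 FPKM elsewhere in it. Some of these 26 are also among those 39, and 2 of the 26 were called. Such zeros can be failed estimates of the assembly, as in COMMD6, at 253, 0 and 0 FPKM in LY19WT, against 123, 85.5 and 72.5 FPKM in LY19Y646F. Without those 26 members the counts were 75 and 24.

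The authors' deposited table of line means holds 184 of the tested members, and 164 of them had the same direction there. Of the 87 called members in the authors' deposited table, 84 had the same direction. That table was made from the same libraries, so it is no independent check. The median log2 change in the authors' deposited table was -0.41 over these members and -0.01 over the 10386 genes of all chromosomes.

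**Figure D2:**
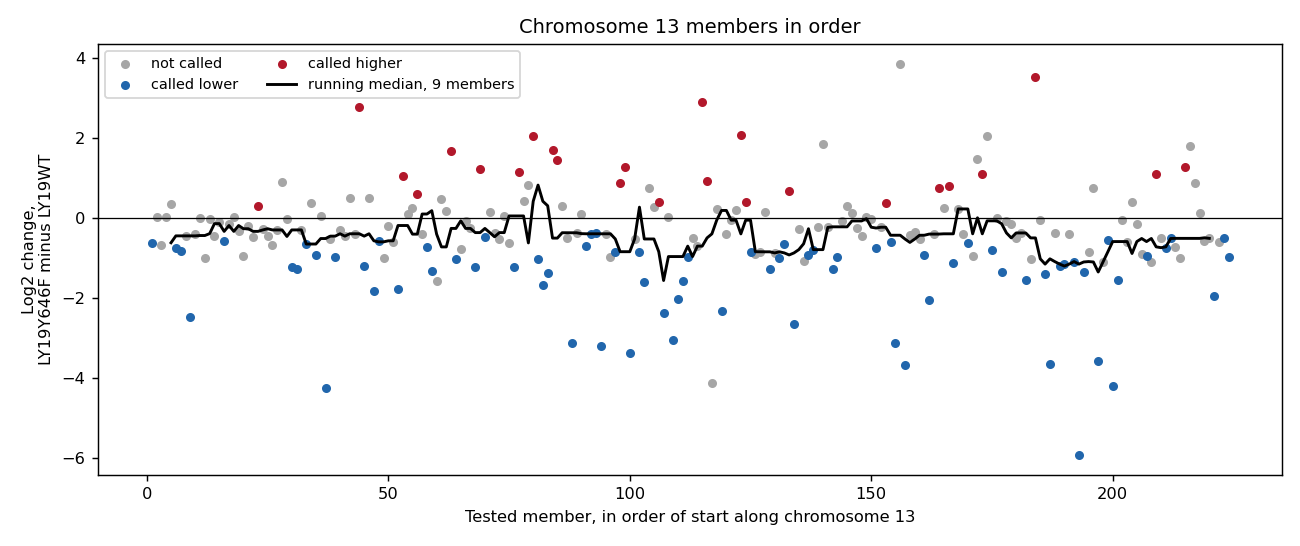
Log2 change (LY19Y646F minus LY19WT, log2(FPKM + 1)) of the 224 tested members in order of start along chromosome 13, in blue where they fell, red where they rose and grey where the test was not passed; the line is the median of 9 neighbours. The line runs below 0 at 198 of 216 positions, with single blue points down to -5.94 at TEX30 and red points up to 3.53 at GPR18.

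Low values were spread over most of the chromosome and were deepest near its far end. In fixed windows of 10 Mb on hg19, all 10 windows with at least 5 tested members had a median below 0, while 152 of 294 such windows on other chromosomes did (51.7%). The window from 100 to 110 Mb had a median of -1.10 over 15 members, the lowest of 304 windows of the genome. Of its members 9 fell, 0 rose and 14 of 15 were on the lower side. PCCA, GGACT, TEX30, LINC00551 and FAM155A of this window averaged under 0.5 FPKM in LY19Y646F and entered through LY19WT. Its depth rests in part on them, and its rank among windows without such members was not tested. The window from 110 to 120 Mb was at -0.58 (25 members, 8 falls and 2 rises) and the window from 50 to 60 Mb at -0.65 (25 members, 8 falls and 4 rises). These 3 medians were below -0.56, the lowest 5% of windows of the genome. That of the window from 50 to 60 Mb was unsteady: it was -0.32 with a filter at 2 FPKM, -0.42 with library weights, -0.39 without LY19WT replicate 2, -0.29 without LY19WT replicate 3, and -0.27 without the members listed at 0 in part of a line or without those under 0.5 FPKM in a single line. The mildest were the windows from 60 to 70 Mb at -0.22 (7 members) and from 30 to 40 Mb at -0.23 (20 members, 5 falls and 4 rises). Without single libraries these ranged from -0.44 (without LY19WT replicate 1) to -0.07 (without LY19Y646F replicate 1) and up to -0.09 (without LY19Y646F replicate 1), respectively, and without LY19WT replicate 3 they were -0.15 and -0.15.

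The window with most tested members, from 40 to 50 Mb, was mixed. Its 46 members had 19 falls and 8 rises, with a median of -0.49 and quartiles of -1.01 and 0.30. The running median over 9 neighbours reached both its extremes here, 0.82 at VWA8 and -1.57 at ITM2B. In the window from 20 to 30 Mb, by contrast, 34 of 43 members were on the lower side, with 12 falls and 2 rises and a median of -0.44. The window from 80 to 90 Mb held 3 tested members, with 1 fall, 1 rise and a median of 0.23, and was left out of these counts.

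**Figure D3:**
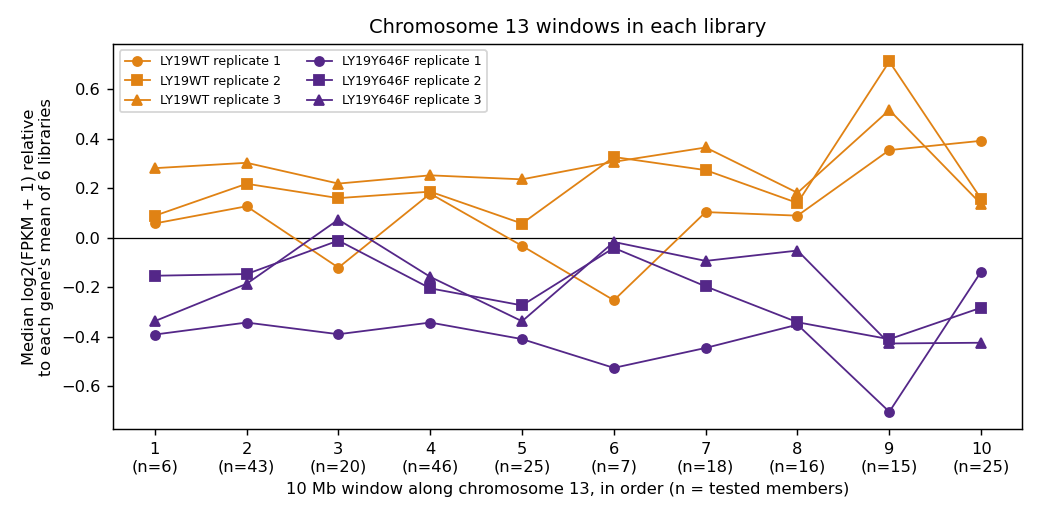
Median deviation of the tested members from each gene's mean over the 6 libraries, in log2(FPKM + 1), for the 10 windows of 10 Mb in order along chromosome 13; each line is a library. In the ninth window, from 100 to 110 Mb, the LY19WT libraries are at 0.35, 0.71 and 0.51 and the LY19Y646F libraries at -0.70, -0.41 and -0.43.

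Libraries of the lines separated in most windows but not in all. From 100 to 110 Mb the LY19WT libraries were at 0.35 to 0.71 and the LY19Y646F libraries at -0.70 to -0.41. From 60 to 70 Mb they overlapped, with LY19WT replicate 1 at -0.25 and LY19Y646F replicates 2 and 3 at -0.04 and -0.02. From 30 to 40 Mb LY19WT replicate 1 was at -0.12, below LY19Y646F replicates 2 and 3 at -0.01 and 0.07. In both of these windows replicate 1 was the lowest library of its line.

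Neighbours on the same side of 0 formed 15 runs of at least 5 tested members on the lower side and 0 on the higher side. These runs held 42.0% of the tested members, where the other chromosomes had a median of 13.7% and a maximum of 30.2%. Length alone did not set the chromosome apart: its longest run held 11 members, and the longest on any other chromosome held 16. The runs were read from the values, so they describe the data and carry no test. With 70.5% of members on the lower side, runs on that side form often even where neighbours are not tied. Whether the 42.0% goes beyond that was not tested.

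The longest run reached from TM9SF2 to LINC00551 (hg19 chr13:100153671-107283707, 7.13 Mb) and had a median log2 change of -1.16. Of its 11 members 7 fell: CLYBL, PCCA, GGACT, TMTC4, TPP2, TEX30 and ARGLU1. PCCA, GGACT, TEX30 and LINC00551 entered through LY19WT, being under 0.5 FPKM on average in LY19Y646F. It opened with TM9SF2, a transmembrane protein of the endosomal system, whose levels overlapped at 64.2, 71.8 and 76.4 FPKM in LY19WT, against 62.6, 71.9 and 71.8 FPKM in LY19Y646F (limma adjusted p = 0.812). The member after its end, the pseudogene ATP5G1P5, was on the higher side without passing the test (log2 change 0.76, limma adjusted p = 0.0593). The run from FAM155A to ING1 (chr13:107816914-111376380) came next, with 7 members, 4 falls and a median of -1.10. Without LY19WT replicate 2, or without LY19Y646F replicate 1, the longest run held 7 members.

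TEX30, a protein-coding gene whose role is little known, had the largest fall of the chromosome (hg19 chr13:103418340-103426161). LY19WT libraries held 59.3, 58.9 and 64.8 FPKM of it, and it was listed at 0, 0.0263 and 0 FPKM in the LY19Y646F libraries. The lines were far apart and the spread within each was small, with a log2 change of -5.94 (SE 0.11, limma adjusted p = 1.41e-05). In the authors' deposited table it stood at 56.8 and 0.00979 FPKM. Its promoter above is CG-rich.

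PCCA encodes the alpha subunit of mitochondrial propionyl-CoA carboxylase (hg19 chr13:100741269-101182686). Its levels were 16.9, 9.29 and 24.9 FPKM in LY19WT, against 0.226, 0.275 and 0.514 FPKM in LY19Y646F. The LY19WT libraries differed among themselves by more than 2-fold, yet all were above all LY19Y646F libraries (log2 change -3.66, SE 0.36, limma adjusted p = 0.00115). CLYBL, a mitochondrial citramalyl-CoA lyase that neighbours it, measured 20.1, 15.3 and 13.2 FPKM against 3.81, 6.88 and 6.10 FPKM. It fell by 1.39 on the log2 scale (SE 0.25, limma adjusted p = 0.0106).

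ARGLU1, an arginine and glutamate rich protein that acts in transcription and splicing, was the most abundant member of this run (chr13:107050841-107220543). Its libraries were at 237, 307 and 337 FPKM in LY19WT, against 101, 137 and 105 FPKM in LY19Y646F, without overlap. The log2 change was -1.35 (SE 0.19, limma adjusted p = 0.00400). TPP2, a large cytosolic peptidase, measured 74.3, 97.9 and 84.6 FPKM against 28.7, 39.0 and 54.5 FPKM. Here too the lines did not overlap (log2 change -1.09, SE 0.26, limma adjusted p = 0.0250).

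**Figure D4:**
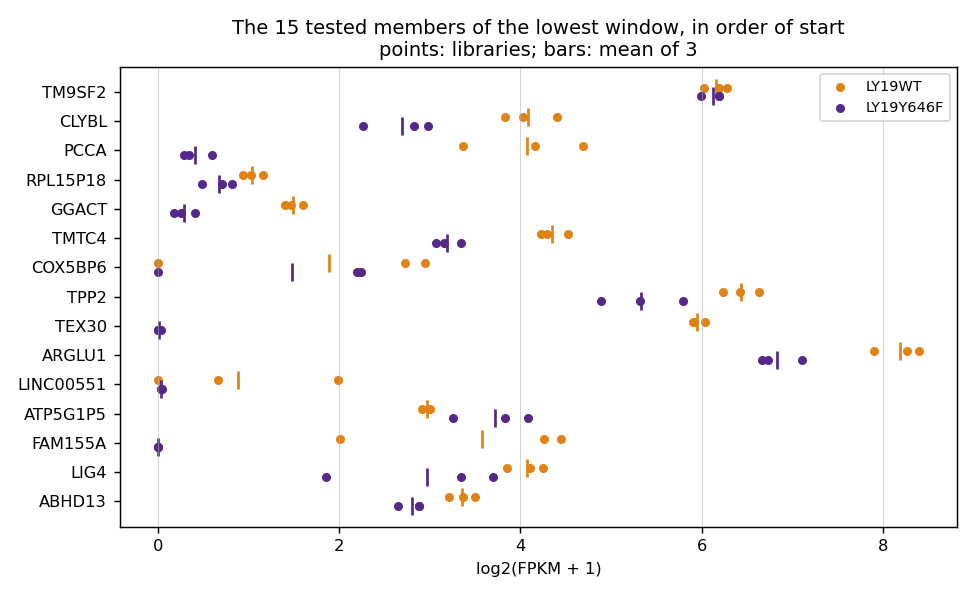
Levels of the 15 tested members that start between 100 and 110 Mb, as log2(FPKM + 1), in order of start; points are libraries and bars the means of 3. All LY19Y646F points lie left of all LY19WT points for CLYBL, PCCA, RPL15P18, GGACT, TMTC4, TPP2, TEX30, ARGLU1, FAM155A, LIG4 and ABHD13, they mix for TM9SF2, COX5BP6 and LINC00551, and they lie to the right for ATP5G1P5.

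LIG4, the ligase of non-homologous end joining, and its head-to-head neighbour ABHD13 lay in the second run. LIG4 measured 13.4, 16.2 and 18.0 FPKM in LY19WT, against 9.15, 11.9 and 2.63 FPKM in LY19Y646F. The lines did not overlap, but the low replicate 3 widened the spread and the test was not passed (log2 change -1.10, SE 0.50, limma adjusted p = 0.159). IRS2, an adaptor of the insulin and IGF receptors, measured 14.6, 37.0 and 17.8 FPKM against 0.0851, 0.501 and 0.0953 FPKM (chr13:110406184-110443323). Its log2 change was -4.20 (SE 0.38, limma adjusted p = 0.000830). FAM155A, a subunit of the NALCN sodium leak channel, was at 3.04, 18.2 and 20.8 FPKM in LY19WT and listed at 0 in all LY19Y646F libraries. Its limma adjusted p was 0.0125, and 0.0504 without LY19WT replicate 2. The authors' deposited table has FAM155A at 0.429 and 0 FPKM, and its LY19WT level is therefore uncertain.

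Other runs held single deep falls beside smaller ones. The run from LPAR6 to CDADC1 (chr13:48963707-49888482) had a median of -1.27 over 6 members, 4 of which fell. LPAR6, a receptor for lysophosphatidic acid, measured 8.34, 8.84 and 9.78 FPKM in LY19WT, against 0.241, 0.261 and 0.0929 FPKM in LY19Y646F. Both lines were tight, and its log2 change was -3.06 (SE 0.13, limma adjusted p = 6.40e-05). RCBTB2, beside it, was at 20.6, 25.8 and 28.0 FPKM against 7.28, 6.45 and 2.95 FPKM, a fall of 2.04 on the log2 scale (SE 0.32, limma adjusted p = 0.00634). ITM2B, an integral membrane protein just outside this run, measured 187, 204 and 217 FPKM against 30.4, 43.8 and 41.0 FPKM. It was among the most abundant falls, with a log2 change of -2.38 (SE 0.16, limma adjusted p = 0.000288).

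The run from KCTD12 to RNF219 had 7 members, 3 falls and a median of -0.53. KCTD12, an auxiliary subunit of GABA-B receptors, measured 15.7, 17.9 and 19.3 FPKM in LY19WT, against 0.417, 0.462 and 0.455 FPKM in LY19Y646F (chr13:77454312-77460540). Its libraries were closely grouped in each line and its log2 change was -3.68 (SE 0.13, limma adjusted p = 3.54e-05). SLAIN1, a microtubule plus-end protein of the same run, was at 38.2, 45.9 and 63.9 FPKM against 8.85, 12.1 and 11.6 FPKM. It fell by 2.07 on the log2 scale (SE 0.23, limma adjusted p = 0.00184). RNF219, which closes the run, was at 27.7 to 32.9 FPKM against 19.6 to 24.6 FPKM and missed the threshold (limma adjusted p = 0.0735).

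The members were also grouped by what they do, in 7 lists of chromosome 13 genes that hold 122 of the tested members. The lists were drawn with the results of these data known, so their counts are descriptions. Most listed genes are protein-coding, and 64 of the 148 coding members of the chromosome fell and 14 rose, with a median of -0.54. The lists below are to be read beside that share. The metabolism and transport genes had 11 falls among 19, and the replication, repair and division genes 10 among 18. The transcription and chromatin genes had 8 falls among 20, and the immune signalling genes 6 among 16. The RNA processing and translation genes had 6 falls among 18 and a median of -0.05, the mildest of the 7.

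Metabolism and transport genes had the deepest median, -1.11, with 11 falls and 2 rises among 19. ATP8A2, a phospholipid flippase of the plasma membrane, measured 18.8, 26.1 and 15.99 FPKM in LY19WT, against 0.0894, 0.115 and 0.0576 FPKM in LY19Y646F (chr13:25946209-26599993). All LY19Y646F libraries were near 0, and the log2 change was -4.26 (SE 0.20, limma adjusted p = 8.67e-05). SLC25A30, a carrier of the mitochondrial inner membrane, was at 7.97, 8.95 and 9.11 FPKM against 0, 0.0646 and 0.0551 FPKM. Its log2 change was -3.22 (SE 0.12, limma adjusted p = 4.48e-05). CRYL1, an enzyme of the glucuronate pathway, went from 4.80 ± 0.955 to 0.0358 ± 0.00891 FPKM (SD, n = 3 each; limma adjusted p = 0.000254). SLC46A3, a lysosomal solute carrier, went from 2.68 ± 0.307 to 0.0331 ± 0.00758 FPKM (limma adjusted p = 0.000332). ESD, an esterase that hydrolyses S-formylglutathione, was the most abundant of these falls at 214, 223 and 234 FPKM against 61.6, 77.6 and 80.2 FPKM (log2 change -1.61, limma adjusted p = 0.000481). The rises were CAB39L and ABCC4, described below.

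Replication, repair and cell division genes had 10 falls among 18, with a median of -0.73. TEX30 is in this list without an established role in it. NEK3, a kinase of the NIMA family, measured 19.6, 17.5 and 16.8 FPKM in LY19WT, against 2.19, 1.89 and 2.01 FPKM in LY19Y646F. Its log2 change was -2.64 (SE 0.12, limma adjusted p = 6.94e-05). PDS5B, a regulator of cohesin, was at 31.6, 37.3 and 41.2 FPKM against 11.5, 13.9 and 17.1 FPKM, and CENPJ, a centriole assembly protein, at 27.6, 31.1 and 33.0 FPKM against 9.22, 14.3 and 12.6 FPKM. Both fell by more than 2-fold without overlap, with log2 changes of -1.32 and -1.29 (limma adjusted p = 0.00387 and 0.00433). PARP4, the vault poly(ADP-ribose) polymerase, fell from 49.9 ± 4.44 to 20.7 ± 2.39 FPKM (limma adjusted p = 0.00151). RNASEH2B, a subunit of ribonuclease H2, fell from 216 ± 22.1 to 119 ± 2.69 FPKM (limma adjusted p = 0.00225). The clamp loader subunit RFC3 was at 79.4 to 97.9 FPKM in LY19WT, against 102 to 147 FPKM in LY19Y646F, without overlap, and missed the threshold (limma adjusted p = 0.0872).

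Transcription and chromatin genes had 8 falls and 2 rises among 20, with a median of -0.45. TSC22D1, a leucine zipper regulator induced by TGF-beta, measured 44.2, 40.3 and 44.0 FPKM in LY19WT, against 4.26, 4.18 and 3.60 FPKM in LY19Y646F (chr13:44808254-45151399). The libraries of each line lay close together, and the log2 change was -3.13 (SE 0.11, limma adjusted p = 3.58e-05). CDK8, the kinase of the Mediator complex, fell from 43.3 ± 4.50 to 21.7 ± 3.35 FPKM (limma adjusted p = 0.00622), and CHAMP1, a zinc finger protein of chromosome alignment at the end of the long arm, from 43.5 ± 3.52 to 21.7 ± 3.02 FPKM (limma adjusted p = 0.00415). SETDB2, of the SET domain family of histone methyltransferases, rose from 18.3, 21.7 and 25.4 FPKM to 34.9, 46.8 and 45.8 FPKM. Its log2 change was 0.93 (SE 0.18, limma adjusted p = 0.0128; 0.0504 without LY19Y646F replicate 2). PHF11, its next neighbour, was at 63.1, 45.0 and 51.6 FPKM in LY19WT, against at 0, 0 and 27.3 FPKM in LY19Y646F, while the authors' deposited table has 28.4 FPKM for that line. The test was not passed (limma adjusted p = 0.0770). SAP18, of the Sin3 deacetylase complex, overlapped between the lines at 302 to 349 FPKM and 326 to 344 FPKM (log2 change 0.03, SE 0.08).

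Genes of RNA processing, translation and export had 6 falls and 1 rise among 18. EXOSC8, a core subunit of the RNA exosome, measured 133, 154 and 159 FPKM in LY19WT, against 64.2, 79.8 and 73.1 FPKM in LY19Y646F (log2 change -1.03, SE 0.12, limma adjusted p = 0.00238). PAN3, of the deadenylase that shortens poly(A) tails, was at 37.9, 43.4 and 35.9 FPKM against 14.9, 18.2 and 15.8 FPKM (log2 change -1.21, SE 0.13, limma adjusted p = 0.00143). In both genes the lines were clear of each other. TPT1, the translationally controlled tumour protein and one of the most abundant RNAs of the chromosome, was at 3631, 3499.6 and 3518 FPKM against 2955, 2674 and 2611 FPKM. That small fall of 0.37 on the log2 scale passed the test (SE 0.07, limma adjusted p = 0.0116), but not when any single library other than LY19Y646F replicate 1 was left out (limma adjusted p = 0.0508 to 0.0746). XPO4, an exportin, overlapped at 24.1 to 29.99 FPKM and 24.7 to 28.3 FPKM (log2 change -0.03, SE 0.12). MTRF1, a mitochondrial release factor, was the rise, from 11.3, 12.7 and 13.04 FPKM to 23.3, 33.6 and 29.8 FPKM (log2 change 1.15, SE 0.16, limma adjusted p = 0.00423).

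Genes of protein folding, ubiquitin and trafficking had 12 falls and 2 rises among 27, with a median of -0.53. TBC1D4, a Rab GTPase-activating protein of insulin-regulated vesicle traffic, measured 20.7, 23.8 and 25.3 FPKM in LY19WT, against 1.63, 1.96 and 1.68 FPKM in LY19Y646F. The lines were far apart, with a log2 change of -3.13 (SE 0.13, limma adjusted p = 5.50e-05). UBAC2, a membrane protein of the endoplasmic reticulum, was at 69.0, 55.4 and 53.5 FPKM against 19.4, 16.9 and 22.3 FPKM (log2 change -1.55, limma adjusted p = 0.00126). MYCBP2, a large ubiquitin ligase, fell from 46.9 ± 5.46 to 24.2 ± 3.65 FPKM (limma adjusted p = 0.00785), and VPS36, of the ESCRT-II complex, from 32.0 ± 2.33 to 16.4 ± 1.83 FPKM (limma adjusted p = 0.00350). The rises were DNAJC15 and NDFIP2. DNAJC15, a co-chaperone of the mitochondrial inner membrane, measured 2.19, 2.11 and 2.07 FPKM against 10.7, 8.13 and 8.62 FPKM (chr13:43597339-43683838). Its log2 change was 1.70 (SE 0.14, limma adjusted p = 0.000612). NDFIP2, an adaptor of NEDD4-family ligases, rose from 12.4 ± 1.13 to 22.3 ± 2.06 FPKM (limma adjusted p = 0.00560).

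Immune signalling genes moved in both directions, with 6 falls and 4 rises among 16. The falls included IRS2 and LPAR6 above, and RASA3, a GTPase-activating protein for Ras and Rap, which went from 25.2, 18.3 and 16.6 FPKM to 5.99, 3.68 and 3.59 FPKM (log2 change -1.96, SE 0.25, limma adjusted p = 0.00278). ARL11, a small GTPase, was at 24.3, 21.2 and 18.3 FPKM against 3.34, 3.70 and 3.09 FPKM (log2 change -2.34, SE 0.15, limma adjusted p = 0.000208). AKAP11, an anchor of protein kinase A, fell from 20.0 ± 1.01 to 7.04 ± 0.853 FPKM (limma adjusted p = 0.000826). GPR18, a G protein-coupled receptor of lymphoid cells, had the largest rise among members that passed the test (chr13:99906968-99913998). It measured 0.258, 0.167 and 0 FPKM in LY19WT, against 11.9, 12.9 and 11.6 FPKM in LY19Y646F. The lines were far apart, with a log2 change of 3.53 (SE 0.14, limma adjusted p = 5.11e-05). By position GPR18 lies within the row of UBAC2, which fell, and ahead of TM9SF2, which overlapped between the lines. Its promoter above is CG-poor.

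LCP1, the actin-bundling L-plastin of leukocytes, was the most abundant rise. It measured 238, 284 and 278 FPKM in LY19WT, against 414, 537 and 530 FPKM in LY19Y646F (log2 change 0.88, SE 0.14, limma adjusted p = 0.00642). ALOX5AP, the 5-lipoxygenase activating protein of leukotriene synthesis, was at 48.3, 52.8 and 47.7 FPKM against 68.3, 80.1 and 77.6 FPKM (log2 change 0.59, SE 0.10, limma adjusted p = 0.00827). RGCC, a regulator of the cell cycle induced by complement, measured 0.167, 1.504 and 0.392 FPKM against 6.95, 5.44 and 4.64 FPKM (log2 change 2.05, SE 0.33, limma adjusted p = 0.00698). In all 3 genes every LY19Y646F library was above every LY19WT library.

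The DLEU region and the microRNA hosts were followed because they give this chromosome its place in lymphoid disease. DLEU1, a long non-coding RNA (row at hg19 chr13:50656307-51297372), measured 7.81, 10.2 and 13.5 FPKM in LY19WT, against 34.7, 58.7 and 48.8 FPKM in LY19Y646F. It rose without overlap, with a log2 change of 2.07 (SE 0.27, limma adjusted p = 0.00329). Rows naming DLEU2, which was no member because its name stood in a joined row in LY19WT replicate 1, were at 0, 0 and 7.62 FPKM against 21.5, 25.3 and 16.5 FPKM. TRIM13, a ubiquitin ligase of the endoplasmic reticulum, shares its row with KCNRG, and that joined row was at 114, 115 and 121 FPKM against 26.0, 27.1 and 21.4 FPKM. It lies beside DLEU1 and stood lower in every LY19Y646F library, with no test because the row joins 2 genes. SPRYD7 overlapped between the lines at 6.12, 6.88 and 10.7 FPKM and 8.28, 8.47 and 9.98 FPKM (limma adjusted p = 0.557). KPNA3, an importin alpha, overlapped too, at 52.8 to 65.1 FPKM and 43.5 to 64.5 FPKM (limma adjusted p = 0.849). MIR17HG, the host transcript of the miR-17-92 cluster, was at 8.93, 8.38 and 9.49 FPKM against 8.36, 8.83 and 3.65 FPKM (log2 change -0.40, SE 0.32, limma adjusted p = 0.406). Its lower mean came from LY19Y646F replicate 3.

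Other large rises were spread along the chromosome. CAB39L, a scaffold of the LKB1 kinase complex, was at 1.88, 2.17 and 0 FPKM in LY19WT, against 11.5, 24.1 and 11.4 FPKM in LY19Y646F (log2 change 2.91, SE 0.56, limma adjusted p = 0.0125). Its row overlaps that of SETDB2 by position, and its zero in LY19WT replicate 3 may be a failed estimate. With a pseudocount of 0.1 FPKM its call was lost (limma adjusted p = 0.0604). SMAD9, a transcription factor of BMP signalling, measured 0.606, 0.122 and 0.749 FPKM against 3.45, 3.92 and 3.61 FPKM (log2 change 1.67, SE 0.21, limma adjusted p = 0.00267). LHFP, a tetraspan membrane protein, measured 0.529, 0.305 and 0.452 FPKM against 2.29, 2.71 and 2.07 FPKM (log2 change 1.23, SE 0.14, limma adjusted p = 0.00222). Both genes were low in LY19WT and closely grouped in LY19Y646F.

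ABCC4, an exporter of organic anions and cyclic nucleotides, was at 7.99, 11.7 and 9.66 FPKM against 16.3, 23.6 and 27.9 FPKM (log2 change 1.11, SE 0.24, limma adjusted p = 0.0198). ADPRHL1, related to ADP-ribosylhydrolases, was at 1.04, 0.988 and 0.633 FPKM against 2.62, 6.39 and 2.49 FPKM (log2 change 1.27, SE 0.34, limma adjusted p = 0.0370). Both passed the test narrowly. ABCC4 lost its call without LY19WT replicate 1 or 3 or without LY19Y646F replicate 2 or 3 (limma adjusted p = 0.0592 to 0.0737). ADPRHL1 lost its call without any of the LY19WT replicates or without LY19Y646F replicate 3 (limma adjusted p = 0.0526 to 0.117). ATP5EP2, a pseudogene of the ATP synthase epsilon subunit, was at 2.42, 4.35 and 5.88 FPKM against 45.6, 33.3 and 24.6 FPKM (log2 change 2.78, SE 0.35, limma adjusted p = 0.00274), and its reads may be shared with the parent gene on another chromosome.

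**Figure D5:**
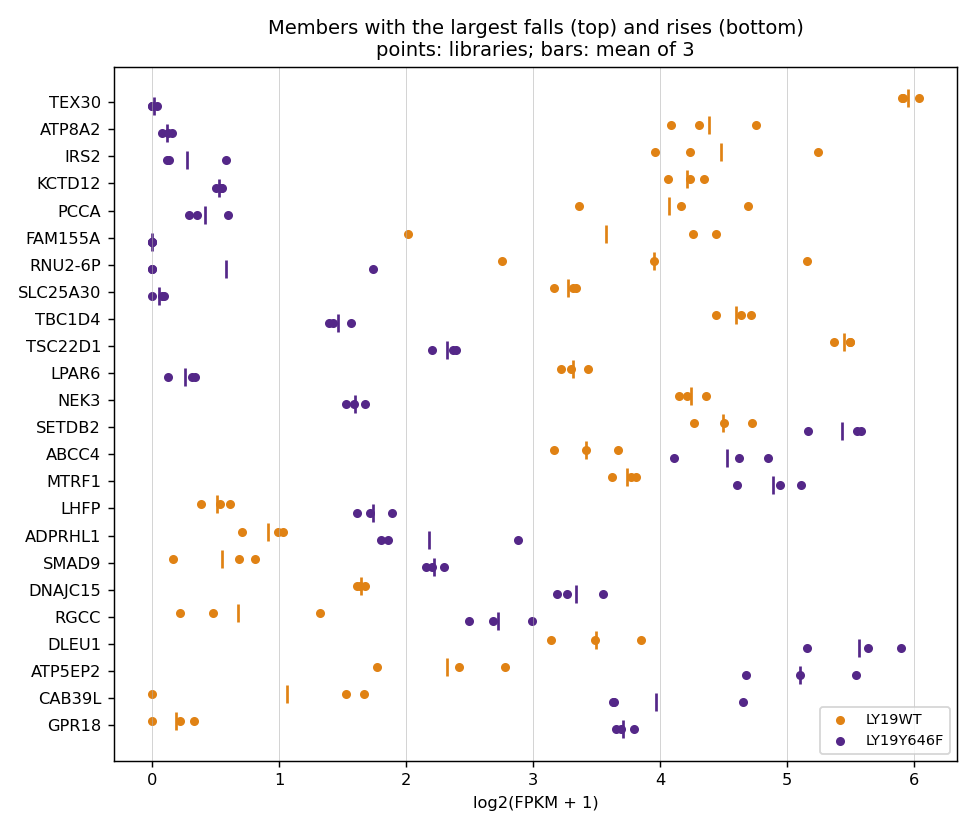
Levels of the 12 tested members with the largest falls (top) and the 12 with the largest rises (bottom) among called members that average at least 2 FPKM in the higher line and whose lines do not overlap, as log2(FPKM + 1); points are libraries and bars the means of 3. The LY19WT points of FAM155A, RNU2-6P and CAB39L are the most scattered.

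In a few rows the per-library values and the authors' deposited table differ. RNU2-6P, a U2 small nuclear RNA pseudogene, was at 5.75, 34.7 and 14.5 FPKM in LY19WT, against 0, 2.34 and 0 FPKM in LY19Y646F (limma adjusted p = 0.0247, and 0.0678 to 0.0877 without LY19WT replicate 2 or 3 or LY19Y646F replicate 1 or 3). In contrast, the authors' deposited table has 0.260 and 0.778 FPKM, the opposite direction. PTMAP5, a prothymosin alpha pseudogene, was at 289, 342 and 334 FPKM against 165, 137 and 136 FPKM, while the authors' deposited table has 22.0 and 40.6 FPKM. For COMMD6 the authors' deposited table has 148 and 104 FPKM, opposite to the log2 change of 3.87 here, which did not pass the test (limma adjusted p = 0.267). LINC01058, a long non-coding RNA, was at 0, 0 and 0 FPKM in LY19WT, against 0.754, 1.36 and 1.20 FPKM in LY19Y646F. It was called higher (limma adjusted p = 0.00537), while the authors' deposited table has 1.84 and 1.28 FPKM. These rows were named after their values were seen, and their direction is uncertain.

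The 12 untested members include some of the wider gaps between the lines. The row that joins BIVM and ERCC5, a nuclease of excision repair, was at 29.8, 48.7 and 35.0 FPKM in LY19WT, against 8.88, 10.7 and 11.4 FPKM in LY19Y646F. It lies next to TEX30, in the lowest window. The row that joins KIAA0226L and PPP1R2P4 was at 1.11, 0.922 and 1.04 FPKM against 33.8, 29.1 and 30.7 FPKM, and the row that joins C1QTNF9 and SPATA13 with 2 further names at 0.0254, 0.0212 and 0.0353 FPKM against 12.9, 15.4 and 14.3 FPKM. Both stood higher in every LY19Y646F library. POMP, the proteasome maturation protein, had a failed row and was at 182 to 196 FPKM against 106 to 116 FPKM. IPO5, an importin with a failed row, overlapped at 150 to 195 FPKM and 139 to 185 FPKM.

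Promoters of 133 tested members were found in RefSeq (GRCh38.p14), 128 of them of coding members, among 27305 promoters of 300 bases. Those 27305 were not chosen by RNA level or gene type, so they are no matched background for expressed coding members. The median number of CG dinucleotides was 30 in the 55 coding members that fell, 24 in the 13 that rose and 31 in the 60 that did not pass the test, beside 14 in all promoters. Falls and members that did not pass the test were thus close to each other, and the quartiles of the rises, 4 and 37, were wide. GGGCGG, a GC box, was found on either strand in 72.7% of the falls, 53.8% of the rises and 71.7% of the others, and in 44.6% of all promoters. CCGGAAG, the core of an ETS site, was in 18.2%, 15.4% and 20.0%, and in 10.7% of all. TATAAA was in 3.64%, 15.4% and 5.00%, and in 11.95% of all. Both strands were read, no motif contains another, and a match is a description only. In the printed windows DNAJC15 holds CCGGAAG and TATAAA, MZT1 and BORA hold GGGCGG, and TEX30 and GPR18 hold none of the 3.

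Few head-to-head neighbours could be compared. Among tested members, of which 45.1% were called, 5 head-to-head pairs start within 1000 bases of each other without overlap of their starts. The signs were the same in 3 pairs, and in 0 of them were both members called. These are too few pairs for a result about shared start regions. Neighbours outside this count were not tallied, and in some cases both were called. PCID2 and CUL4A, whose rows overlap, both fell (limma adjusted p = 0.0156 and 0.0325). CAB39L and SETDB2, whose rows also overlap, both rose (limma adjusted p = 0.0125 and 0.0128). MZT1, a gamma-tubulin complex protein, was at 55.7, 50.7 and 59.3 FPKM in LY19WT, against 58.0, 54.2 and 51.5 FPKM in LY19Y646F, with overlapping lines (log2 change -0.02, SE 0.10). BORA, an activator of Aurora A and PLK1, starts 294 bases away and was at 34.1, 36.7 and 34.0 FPKM against 17.4, 21.9 and 21.9 FPKM. It fell by 0.75 on the log2 scale (SE 0.12, limma adjusted p = 0.00750). The difference between the changes of these neighbours was not tested. In the pairs of NUFIP1 with GPALPP1, PROSER1 with NHLRC3 and LIG4 with ABHD13, the second gene fell and the first did not pass the test. In the fifth pair, LNX2 with POLR1D, neither did.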

How the data were processed

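Poly(A) RNA libraries from a stranded mRNA kit, read from a single end over 85 nucleotides, were taken from 3 libraries each of LY19WT and LY19Y646F, grouped by sample title. Reads were aligned with STAR 2.5.3a and quantified with Cufflinks 2.2.1 and Cuffdiff 2.2.1 on hg19, per the submitters' processing notes. The authors deposited FPKM per gene for each library, with loci assembled per library, and a table of mean FPKM per line; FPKM are already scaled to each library's total and are not counts. Rows were joined by symbol, a row counting for its only name or its only protein-coding name (GENCODE gene types). Genes sharing a row with another coding gene or with a failed row were not tested.

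Genes averaging at least 0.5 FPKM were fitted on log2(FPKM + 1), a scale that understates changes of low genes, with limma 3.58.1 in R 4.3.3 (lmFit, eBayes with a trend, two-sided, Benjamini-Hochberg over 10703 genes). The fit was tested on simulated data. Windows, runs and running medians are descriptions; positions are hg19, counted from 1. Named members are the top 12 falls and top 12 rises of called members whose libraries did not overlap and whose higher line averaged at least 2 FPKM, up to 4 per list by adjusted p, the ends of runs and the DLEU and MIR17HG genes; others were chosen after their values were seen. The members and lists were chosen with earlier results of these data known. Alternatives changed the pseudocount, filter, scaling, weights, row reading and replicates. Python 3.11.15, pandas 2.3.3, numpy 2.4.6 and matplotlib 3.10.9 were used.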

Additional observations from a re-analysis of the deposited data

How the results depend on the processing

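With each library left out in turn, 62 to 80 members fell and 19 to 31 rose, the median log2 change was -0.50 to -0.38, the longest run held 7 to 12 members and all 10 windows stayed below 0. Called in all 6 of these fits were 58 of the falls and 17 of the rises. With no filter on low values (533 genes) the median was -0.012, 87 fell and 36 rose, since genes near 0 FPKM change little on this scale. Scaling libraries to a common median moved the median of all genes by 0.11 and that of the members to -0.33, so the gap to all genes was -0.41 in place of -0.43; 59 fell and 25 rose. Library weights gave 106 falls and 39 rises, with calls over all 10703 genes rising alike to 2835 falls and 2937 rises. Among coding members alone, an alternative chosen after seeing the data like those on zeros and single-line members, 14 rose and the median was -0.54. Under both other scalings 57 of the falls and 22 of the rises were still called. The replicate block gave 84 falls and 25 rises; same-numbered libraries correlated at 0.265, 0.0998 and 0.137 in their deviations, each best with its own number, which is a hint from the data and not a pairing in the design. Of the members chosen by the naming rule, no called one changed direction under an alternative, and the other members named were not tabulated there; the window from 60 to 70 Mb came to just above 0 with no filter and to -0.07 and -0.08 with a filter at 2 FPKM and with median scaling, and that from 30 to 40 Mb to -0.08 with median scaling. Depth is unknown, so precision rests on 3 libraries per line.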
